A study of Mus musculus with 2 samples.

Results

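MicroRNA (miRNA) genes that mark blood vessels and red blood cells were followed in short-RNA libraries of mouse hippocampus: Mir126a of endothelial cells, Mir143 and Mir145a of the mural cells that wrap vessels, and Mir144, Mir451a and Mir486 of the red cell lineage. They are 6 of the 2202 miRNA genes in the tables, were chosen by name through their GENCODE M21 identifiers, and all 6 were detected, that is, had at least 2 CPM (counts scaled to a gene-row total of 1000000) in each library. Of all 2202 genes, 433 were detected. The tissue is from the female B6CASTF1/J mouse at an age of 25 days, the first-generation cross of C57BL/6J and CAST/EiJ, and the labels call it a layer of hippocampus without naming the layer. There is 1 group, for which the labels name no treatment and no mutant allele, sampled as biological replicates 1 and 2, with 1 library each. The labels list them as separate tissue samples under 1 shared donor entry and do not say that they came from separate animals, so the SDs over n = 2 below may hold less than the spread between animals. The labels do not say whether blood was flushed from the tissue before dissection. With a single group, the data allow a comparison of vessel wall genes with red cell genes within each library, and of each gene between the libraries, but none between conditions.

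Replicate 1 held 5481053 counts on the main strand of miRNA genes and replicate 2 held 4266963. Reads that matched several places, which enter no gene count, made up 41.9% and 46.4% of the reads in the tables. The 4 neuronal genes used as a tissue check, Mir149, Mir128-1, Mir132 and Mir137, together held 4.76% of the gene counts in replicate 1 and 7.28% in replicate 2. Mir128-1 shares 23 bases with Mir128-2, so its count leaves out reads that match both. Mir132 had 17142 CPM in replicate 1 and 4038 in replicate 2, against the direction of Mir149 (13509 and 32894), Mir128-1 (11606 and 21819) and Mir137 (5321 and 14089), which were lower in replicate 1. Other genes differed far more, in both directions. Mir200c had 19.5 CPM in replicate 1 and 2706 in replicate 2, and Mir182 10.2 and 895. Mir29a had 7438 and 248, and Mir195a 7277 and 590. Over the 433 detected genes the median absolute log2 ratio between the libraries was 0.82. The libraries thus differed widely in content beyond the genes followed here, and the cause was not tested. Intervals below are 95% intervals for counting error only, exact except for changes of a ratio between the libraries, which are approximate. They treat reads as independent, which PCR copies are not, so they may be too narrow. No p-value is given because each side of a library comparison is 1 sample.

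A miRNA gene is transcribed into a hairpin that is cut down to a mature strand of about the length of the sequenced reads, and the mature strand guides Argonaute proteins to messenger RNAs that match its seed, bases 2 to 8. Mir126a lies within Egfl7, a gene of endothelial cells, and in mouse and zebrafish its product sustains signalling by vascular endothelial growth factor by repressing Spred1 and Pik3r2. Mir143 and Mir145a are made together in smooth muscle and pericytes under serum response factor and myocardin, and hold these cells in the contractile state. Mir144 and Mir451a are made from 1 primary transcript that the factor Gata1 switches on in red cell precursors, and Mir451a is the textbook case of a hairpin cut by Argonaute 2 without Dicer. Mir486 lies within Ank1, the gene of the red cell membrane protein ankyrin, and is made in skeletal and heart muscle as well as in red cell precursors.

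The mature strands listed for these genes are shown, with the seed in capitals, because the seed sets which messenger RNAs a miRNA reads. Sequences are printed here for 3 of the 6 genes, from RefSeq entries on GRCm38.p6. Those of Mir143 and Mir145a were left out by choice, and no entry was at hand for Mir486.
miR-126a-3p: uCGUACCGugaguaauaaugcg
miR-144-5p: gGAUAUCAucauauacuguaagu
miR-144-3p: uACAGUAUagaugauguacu
miR-451a: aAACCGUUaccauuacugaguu
No 2 of these share a seed, and no other gene in the RefSeq table has a mature strand with any of these 4 seeds. The Mir144 and Mir451a products, although cut from the same transcript, thus read different target sites. The counts are per gene, so reads from the 5′ and 3′ arms of a hairpin, such as miR-126a-5p and miR-126a-3p, cannot be told apart in them.

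The hairpins of Mir126a and Mir451a are shown with the genes that GENCODE annotates on the opposite strand of the same place, since these overlaps decide how the reads were counted. Capitals mark the mature strands that the table lists.
Mir126a: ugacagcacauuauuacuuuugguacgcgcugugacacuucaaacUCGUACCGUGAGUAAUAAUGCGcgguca
Mir126b: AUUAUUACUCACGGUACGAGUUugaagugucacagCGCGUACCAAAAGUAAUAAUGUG
Mir451a: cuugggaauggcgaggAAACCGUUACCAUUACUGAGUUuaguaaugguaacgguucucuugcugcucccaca
Mir451b: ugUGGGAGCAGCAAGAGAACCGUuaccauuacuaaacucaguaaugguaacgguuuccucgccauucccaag
The mature strand of Mir451a runs from base 17 to base 38 of its 72-base hairpin, reaching from the 5′ arm into the loop. In mm10, Mir126a (ENSMUSG00000065540.1) lies at chr2:26591357-26591429 on the plus strand, within an exon annotated for Egfl7, and Mir126b covers 58 of its 73 bases on the minus strand. The mature strands miR-126a-3p and miR-126b-5p cover 19 of the same positions on opposite strands. Mir451a (ENSMUSG00000070065.1) lies at chr11:78073170-78073241 on the plus strand and Mir451b covers all 72 of its bases on the minus strand. Mir144 (ENSMUSG00000065401.1) lies 99 bases upstream of it at chr11:78073005-78073070, and no other annotated gene overlaps it.

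Vessel wall genes stood far above red cell genes in both libraries. Mir126a had 18708 CPM in replicate 1 (interval 18594 to 18823) and 9834 in replicate 2 (9740 to 9929), a mean of 14271 ± 6275 CPM (SD, n = 2). It ranked 16th of the 433 detected genes by mean CPM. No stretch of its hairpin longer than 11 bases occurs in the hairpin of another miRNA gene. The genes nearest to it in level over the 2 libraries, by Euclidean distance of log2(CPM + 1), were Mir23b (21824 and 9122 CPM, distance 0.25) and Mir99b (22191 and 9382 CPM, distance 0.26).

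**Figure D1:**
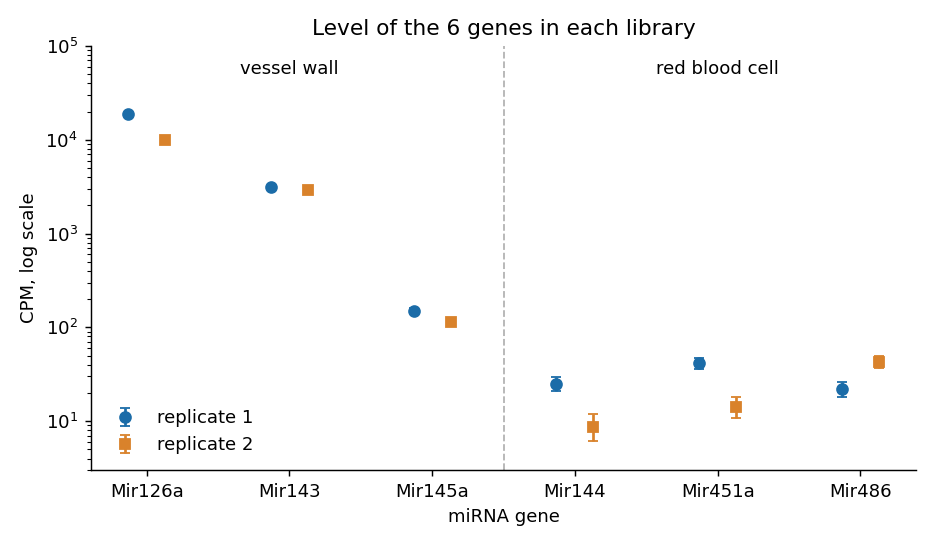
CPM (log scale) of the 6 genes in replicate 1 (circles) and replicate 2 (squares), with exact 95% Poisson intervals as bars. The vessel wall genes run from 18708 CPM for Mir126a to 113 for Mir145a, and every red cell gene lies below 50 CPM in both libraries, with Mir486 alone higher in replicate 2. The Mir486 counts are a lower limit.

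The mural pair was steadier between the libraries than Mir126a. Mir143 had 3099 CPM in replicate 1 (interval 3052 to 3146) and 2947 in replicate 2 (2896 to 2999), a mean of 3023 ± 107 CPM, and ranked 61st of the detected genes. Mir145a had 151 CPM in replicate 1 (141 to 161) and 113 in replicate 2 (104 to 124), or 132 ± 26.4, and ranked 210th. Mir145a was thus close to the middle of the detected genes, whose median level was 118 CPM, while its partner stood well above it.

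In mm10, Mir143 (ENSMUSG00000065445.3) lies on the minus strand of chromosome 18 from 61649196 to 61649258 and Mir145a (ENSMUSG00000065592.2) from 61647825 to 61647894, with 1301 bases between them and no other annotated gene over either. Although they are known to come from a common transcript, Mir143 exceeded Mir145a 20.6-fold in replicate 1 (interval 19.2 to 22.1) and 26.0-fold in replicate 2 (23.7 to 28.5). The intervals of the ratio do not overlap, and it was 0.791 times as large in replicate 1 as in replicate 2. Mir145b, a related gene at another place on that chromosome, had 0 counts in both libraries, with intervals that reach 0.673 CPM in replicate 1 and 0.865 in replicate 2. The longest stretch that Mir145a and Mir145b share is 17 bases. Nearest in level to Mir143 were Mir676 (3186 and 3167 CPM, distance 0.11) and Mirlet7f-2 (2615 and 2916 CPM, distance 0.25), and nearest to Mir145a were Mir375 (197 and 122 CPM, distance 0.40) and Mir6944 (159 and 85.8 CPM, distance 0.41). Mirlet7f-2 shares 22 bases with Mirlet7f-1, so its count leaves out reads that match both.

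Within the vessel wall genes the endothelial share differed between the libraries. Mir126a made up 85.2% of the 120352 vessel wall counts in replicate 1 (Clopper-Pearson interval 85.0 to 85.4) and 76.3% of the 55021 in replicate 2 (75.9 to 76.6). The ratio of Mir126a to Mir143 was 6.04 in replicate 1 (5.94 to 6.14) and 3.34 in replicate 2 (3.27 to 3.40), so it was 1.81 times as large in replicate 1. Because the tissue is bulk, fewer cells of a type and less of a miRNA per cell cannot be told apart here or in any ratio below.

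By counted level, red cell genes lay in the lower part of the detected range. Mir451a had 41.4 CPM in replicate 1 (interval 36.2 to 47.2, from 227 counts) and 14.1 in replicate 2 (10.7 to 18.1, from 60 counts), a mean of 27.7 ± 19.3 CPM (SD, n = 2). Mir144 had 24.8 CPM in replicate 1 (20.8 to 29.4, from 136 counts) and 8.67 in replicate 2 (6.11 to 12.0, from 37 counts), or 16.7 ± 11.4. Both members of the Gata1-driven transcript were thus lower in replicate 2, each with intervals that do not overlap. Mir486 had 21.9 CPM in replicate 1 (18.2 to 26.2, from 120 counts) and 43.1 in replicate 2 (37.1 to 49.8, from 184 counts), or 32.5 ± 15.0, and went the other way. By mean CPM, Mir486 ranked 269th, Mir451a 280th and Mir144 304th of the 433 detected genes. The level, rank and direction of Mir486 rest on counts that are a lower limit, for the reason given below.

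**Figure D2:**
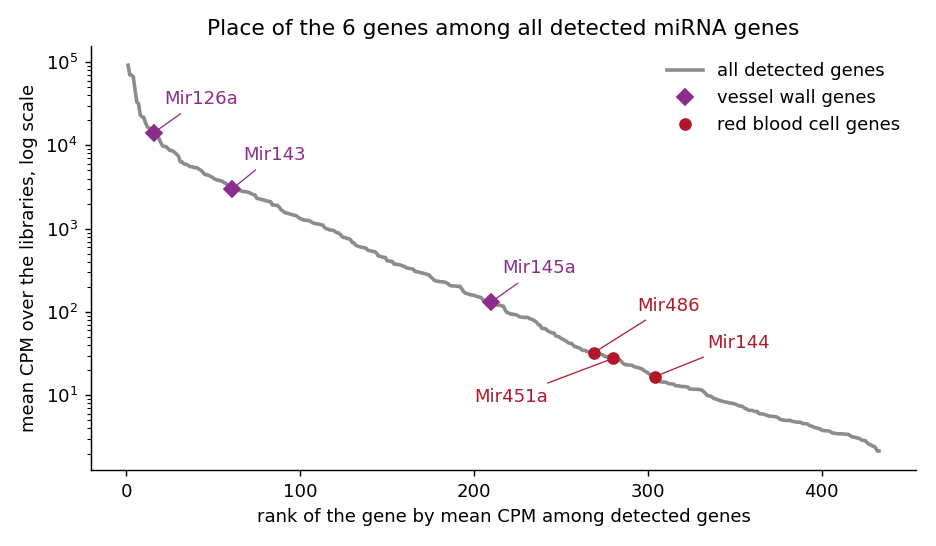
Mean CPM over the 2 libraries (log scale) against rank for the 433 detected miRNA genes, with the vessel wall genes as diamonds and the red cell genes as circles. Mir126a (rank 16) and Mir143 (rank 61) stand high, Mir145a (rank 210) near the middle, and the red cell genes between ranks 269 and 304. The place of Mir486 rests on counts that are a lower limit.

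The order of the red cell genes by counted level was not the same in the libraries. In replicate 1 Mir451a was highest, and the intervals of Mir144 and Mir486 overlap. In replicate 2 Mir486 was highest, and those of Mir451a and Mir144 overlap. By mean CPM over the libraries, Mir486 and Mir451a differ by less than their SDs, and so do Mir451a and Mir144. Mir144 and Mir451a kept nearly the same ratio, 0.599 in replicate 1 (0.481 to 0.744) and 0.617 in replicate 2 (0.398 to 0.944). The change of that ratio, replicate 1 over replicate 2, was 0.972, with an approximate 95% interval from the counts of 0.612 to 1.54. The ratio of Mir486 to Mir451a was 0.529 in replicate 1 (0.420 to 0.662) and 3.07 in replicate 2 (2.28 to 4.18), which is 0.172 times as large in replicate 1 (0.120 to 0.249).

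The share of Mir486 in the red cell sum also differed. It made up 24.8% of the 483 red cell counts in replicate 1 (21.1 to 28.9) and 65.5% of the 281 in replicate 2 (59.6 to 71.0). Mir486 (ENSMUSG00000070084.3) lies at chr8:23142555-23142682 in mm10, within an intron of Ank1, and Mir3107, also named mir-486b, covers 90 of its 128 bases on the opposite strand. Mir486 and Mir3107 share a stretch of 22 bases read in the same direction, so a read that lies wholly within it matches the place on both strands and enters neither gene's count. The Mir486 counts are therefore a lower limit of what the libraries hold, and how much is missing was not tested. At 22 bases the stretch is as long as miR-126a-3p and miR-451a, so whole mature strands of Mir486 may be among the missing reads. Whether the missing part differs between the libraries, and so bears on the direction of Mir486, was not tested either. The other 5 genes share no stretch of 22 bases with any miRNA gene.

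The genes nearest in level to the red cell genes included genes that are counted only in part because they have copies. They were Mir218-1 (22.6 and 7.73 CPM, distance 0.19) and Mir6516 (20.8 and 6.80 CPM, distance 0.40) for Mir144, and Mir26a-2 (42.0 and 12.4 CPM, distance 0.17) and Mir7047 (39.2 and 11.2 CPM, distance 0.31) for Mir451a. For Mir486 they were Mir103-2 (20.6 and 45.7 CPM, distance 0.12) and Mir9-1 (20.1 and 44.8 CPM, distance 0.13). Of these, Mir218-1, Mir26a-2, Mir103-2 and Mir9-1 share at least 22 bases with copies elsewhere, so their counts leave out reads that match the copies, and the likeness is one of counted level in 2 libraries only.

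Strand decided whether 3 of the 6 genes could be counted at all. Mir126a had 102542 counts on its own strand in replicate 1 and 41962 in replicate 2, but 5 and 6 in the column that ignores strand. Mir451a and Mir486 had 0 in that column in both libraries. These are the genes with a miRNA gene annotated opposite, and on their own strand Mir126b and Mir451b had 0 counts in both libraries while Mir3107 had 10 in replicate 1 and 1 in replicate 2. Mir143, Mir145a and Mir144, with no gene opposite, had the same number in both columns. Reads set aside as lying in more than 1 gene were 418831 in that column in replicate 1 and 252905 in replicate 2, and 0 in the main-strand column.

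**Figure D3:**
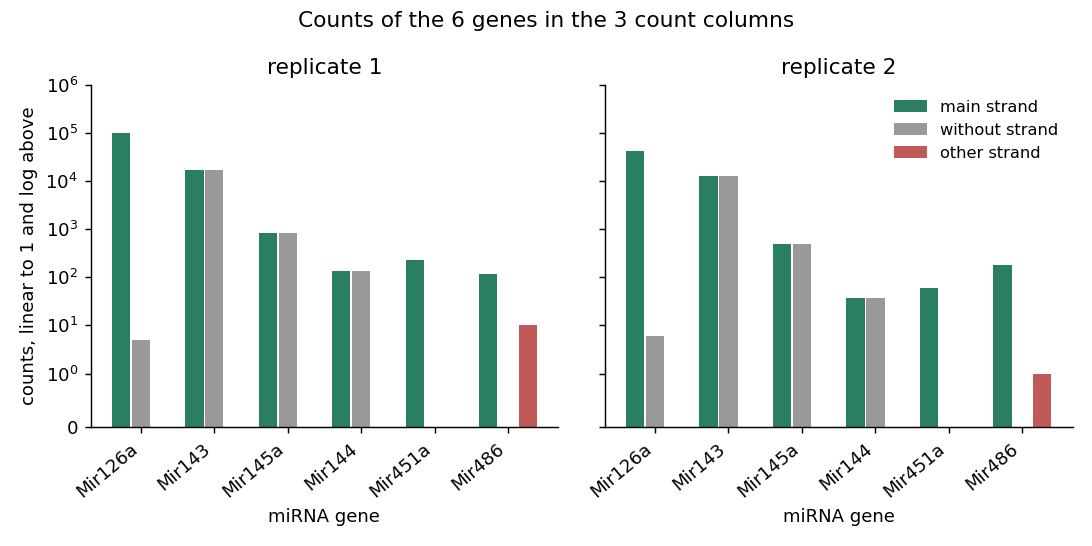
Counts of the 6 genes in replicate 1 (left) and replicate 2 (right) on the main strand, without strand and on the other strand, on an axis that is linear up to 1 count and logarithmic above. Main-strand and strandless bars are equal for Mir143, Mir145a and Mir144, whereas Mir126a drops to 5 and 6 counts and Mir451a and Mir486 to 0 without strand.

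Between the libraries, 3 of the 6 genes were at least 1.5-fold higher in replicate 1, against 28.2% of the 579 tested genes, those whose counts in both libraries add to at least 10, and 1 was at least 1.5-fold lower, against 41.1%. The median log2 ratio, replicate 1 over replicate 2 of CPM + 1, was 0.67 for the 6 genes and -0.24 for all 579. With so few genes, and so many of all genes past 1.5-fold, these counts say little about the 6 as a group. The single values are Mir126a 1.90-fold higher in replicate 1 (interval 1.88 to 1.92), Mir144 2.86-fold (1.98 to 4.23) and Mir451a 2.95-fold higher (2.21 to 3.98). Mir486 stood at 0.508 of its replicate 2 level in replicate 1 (0.400 to 0.642). Mir145a was 1.33-fold (1.19 to 1.49) and Mir143 1.05-fold (1.03 to 1.08) higher in replicate 1. Among the 121 tested genes with a mean of 10 to 100 CPM, where the red cell genes lie, 24.0% were at least 1.5-fold higher in replicate 1 and 45.5% lower.

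**Figure D4:**
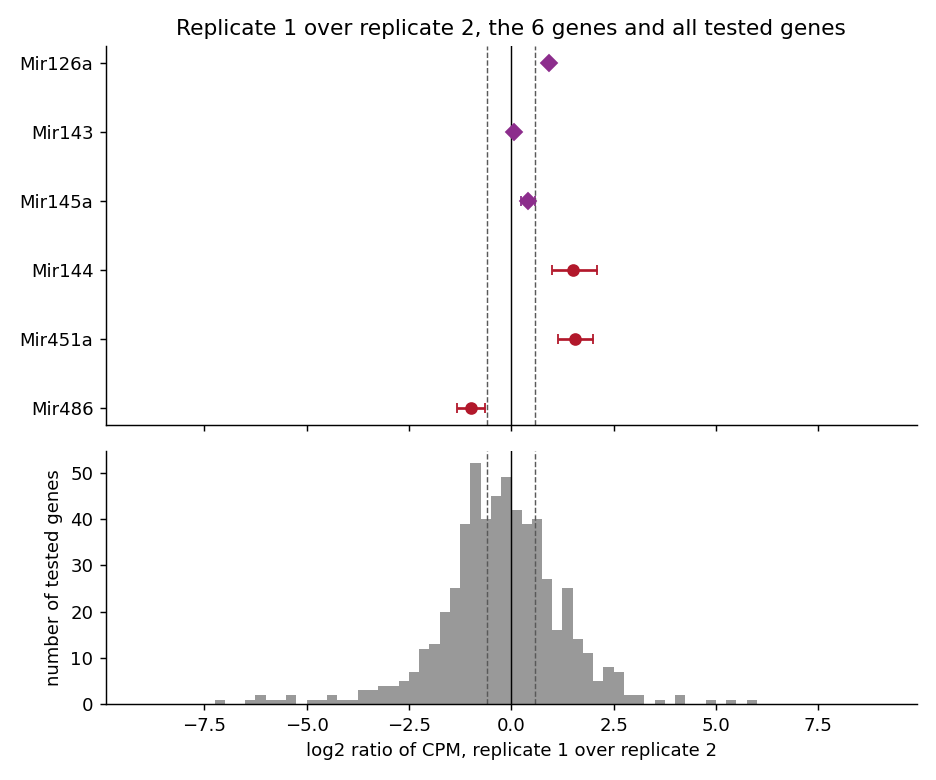
Top, log2 ratio of CPM in replicate 1 over replicate 2 for the 6 genes, with exact 95% intervals (diamonds, vessel wall, and circles, red cell). Bottom, the log2 ratio of CPM + 1 for the 579 tested genes as a histogram with bins of 0.25. Dashed lines mark 1.5-fold. Mir144, Mir451a and Mir126a lie right of the dashed lines, Mir143 and Mir145a between them, and Mir486 left of them, all within the bulk of the histogram.

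Vessel wall counts exceeded red cell counts more than 100-fold in each library. The vessel wall sum was 21958 CPM in replicate 1 and 12895 in replicate 2 (mean 17426 ± 6409 SD, n = 2), and the red cell sum was 88.1 CPM in replicate 1 (80.4 to 96.3) and 65.9 in replicate 2 (58.4 to 74.0), or 77.0 ± 15.7. The ratio of summed counts was 249 in replicate 1 (228 to 273) and 196 in replicate 2 (174 to 221), and on the log2 scale it averaged 7.79 ± 0.25. The Mir486 counts are a lower limit, so these ratios are upper limits in that respect. How far reads missing from Mir486 would lower them was not tested. Each short read was taken to come from 1 mature strand, so counts were not divided by length. How evenly different mature strands are captured as reads was not tested. Ratios between genes are therefore ratios of counts and not of molecules. Per base of annotated hairpin, which weighs down the long Mir486 entry, the ratio was 274 in replicate 1 and 276 in replicate 2.

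Which library had the larger ratio of vessel wall to red cell counts depended on which genes were summed. With all 3 red cell genes the ratio was 1.27 times as large in replicate 1 as in replicate 2 (approximate 95% interval from the counts 1.10 to 1.47). Without Mir486 it was 332 in replicate 1 (299 to 369) and 567 in replicate 2 (465 to 700), which is 0.585 times as large in replicate 1 (0.467 to 0.731). With the mural genes alone over all 3 red cell genes it was 36.9 in replicate 1 (33.7 to 40.4) and 46.5 in replicate 2 (41.3 to 52.5). Vessel wall counts thus stood above red cell counts in each of these versions and per base, while the order of the libraries turned with the choice of genes. White cell and platelet genes entered none of these sums.

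**Figure D5:**
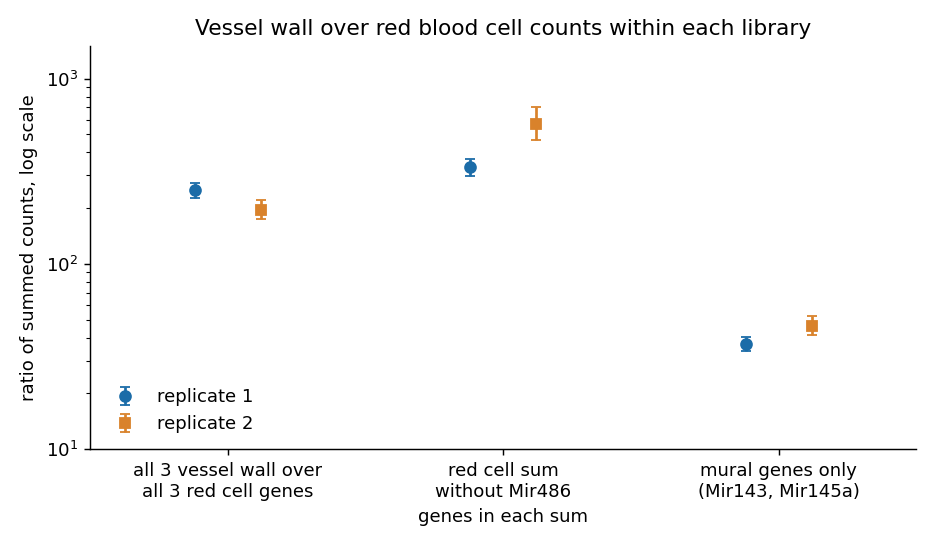
Ratio of vessel wall to red cell counts (log scale) in replicate 1 (circles) and replicate 2 (squares), with exact 95% intervals. With all genes it is 249 against 196, without Mir486 332 against 567, and with the mural genes alone 36.9 against 46.5. Ratios that include Mir486 are upper limits in that respect, since its counts are a lower limit.

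Other genes linked to vessels were found on both sides of the comparison. The 19 listed include regulators of vessel growth and genes of perivascular fibroblasts. Of them 14 were detected, against 433 of all 2202 genes, and 3 had no count. Those not detected include Mir126b, opposite Mir126a, and Mir199a-1, Mir199a-2 and Mir199b. The Mir199 genes share at least 22 bases with each other and so lose the reads of the shared stretch. Among the 15 with at least 10 counts in sum, 4 were at least 1.5-fold higher in replicate 1 (28.2% of all tested genes), 6 lower (41.1% of all) and 5 in between, close to the shares of all genes, with a median log2 ratio of -0.19 against -0.24 for all 579 genes. The most abundant were Mir23b (21824 CPM in replicate 1 and 9122 in replicate 2), Mir130a (1619 and 11080) and Mir23a (6479 and 4361). Mir23b and Mir23a belong to clusters that promote the growth of new vessels, and Mir130a represses the antiangiogenic Gax and Hoxa5 in human endothelial cells. These 3 are made by many other cell types, and the part of other cells in their values was not tested.

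Other blood cell genes were also found on both sides. Of 9 listed, 8 are in the tables under these names and 5 were detected, against 433 of all 2202 genes. The name not found, Mir486b, is another name of the listed Mir3107. Of 6 with at least 10 counts in sum, 2 were at least 1.5-fold higher in replicate 1 (28.2% of all tested genes). Another 3 were at least 1.5-fold lower (41.1% of all) and 1 lay in between, too few to set against those shares. The 2 higher genes were Mir150 and Mir3107, and Mir3107 had only 10 counts in replicate 1 and 1 in replicate 2. Mir150, of mature lymphocytes, had 1215 CPM in replicate 1 and 397 in replicate 2. Mir146, which restrains inflammatory signalling, had 681 CPM in replicate 1 and 500 in replicate 2. Mir142, present in all blood lineages, had 42.9 CPM in replicate 1 and 98.2 in replicate 2, and Mir223, of neutrophils and platelets, had 9.30 and 25.1. With 2 libraries any gene that differs must share a direction with either Mir451a or Mir486. The directions of these genes therefore say nothing about a link to the red cell genes. The 5 white cell and platelet genes Mir223, Mir142, Mir150, Mir155 and Mir146 summed to 1986 CPM in replicate 1 and 1099 in replicate 2, which is 22.5 times (20.6 to 24.7) and 16.7 times (14.8 to 18.9) the red cell counts. The part of hippocampal cells in these 5 values was not tested, so their sum is not a measure of white cells in blood.

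Since Mir486 is also a muscle miRNA, the muscle list is given beside it. Of its 9 genes only Mir206, of skeletal muscle, was detected, against 433 of all 2202 genes. Mir206 had 26.8 CPM in replicate 1 and 38.0 in replicate 2. The list summed to 30.3 CPM in replicate 1 and 41.2 in replicate 2, and 4 of the 9 had no count in either library, among them Mir1a-1, Mir133a-1 and Mir133a-2, which share at least 22 bases with a copy and so lose the reads of it. Mir122, the main miRNA of hepatocytes, had 32.3 CPM in replicate 1 and 141 in replicate 2. Mir206 and Mir122 thus had levels near or above those of the red cell genes, which had 8.67 to 43.1 CPM in single libraries. In replicate 1 Mir451a, at 41.4 CPM, stood above both. The part of muscle or of other tissue in the levels of Mir486, Mir144 and Mir451a was not tested.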

How the data were processed

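Short RNA was sequenced from 2 hippocampus samples. The deposited tables hold raw read counts per miRNA gene, and per the deposited text that accompanies them reads were placed on mm10 and counted over GENCODE M21. How reads were aligned, trimmed and counted is not given in the sources used here. No source names the 3 count columns. From the values, column 2 ignores strand and columns 3 and 4 hold 1 strand each, and column 3 was used. The 4 rows that name no gene (in column 3, unmapped 17.1% and 17.2% of reads, matching several places 41.9% and 46.4%, outside miRNA genes 5.56% and 5.17%, in more than 1 gene 0%, for replicates 1 and 2) stayed out of library sizes. CPM were computed over the 2202 gene rows. Reads of the CAST/EiJ allele may be placed less often on mm10.

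Levels carry exact Poisson intervals, shares and count ratios Clopper-Pearson intervals, and changes of a ratio between libraries a Wald interval (SciPy 1.17.1). For flagging, a count of 0 was taken to allow up to 3 counts. With 1 group there was no test between conditions and no p-value. The ratio script was tested on simulated data. Alternatives were edgeR 4.0.16 TMM, DESeq2 1.42.0 size factors, other denominators, pseudocounts, filters and the strandless column. Sequences came from RefSeq (GRCm38.p6). The text names the 6 genes, the 3 detected genes of highest mean CPM in each list, the 2 genes nearest to each member, and genes sharing a locus. Mir137, Mir145b, Mir155, Mir199a-1, Mir199a-2, Mir199b, Mir223 and the muscle genes other than Mir206 were named after their values were seen. The same holds for Mir29a, Mir128-2, Mir182, Mir195a, Mir200c and Mirlet7f-1. The members and lists were chosen with earlier results of these data known.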

Additional observations from a re-analysis of the deposited data

Results flagged for a closer look

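A signal outside the column used for the comparisons appeared at 1 of the 6 genes. In the count column of the other strand, Mir486 had 10 counts in replicate 1, above the 3 that a count of 0 allows, and 1 in replicate 2. Mir3107, annotated opposite to it, had 10 and 1 counts on its own strand. With 2 samples the libraries were too few to look for an outlying sample.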

How the results depend on the processing

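Directions between the libraries held for all 6 genes under both other scalings, both other denominators and both pseudocounts. TMM, DESeq2 size factors and the total of all reads moved the median log2 ratio, replicate 1 over replicate 2, of the 433 detected genes by 0.29, 0.27 and 0.18. Under each of these 3, 4 in place of 3 of the 6 genes were at least 1.5-fold higher in replicate 1, Mir145a being added (1.63-fold with TMM and 1.60-fold with DESeq2 size factors, but on the threshold over all reads, at 1.49-fold once 1 is added to each value), and 200, 198 and 189 in place of 163 of all tested genes were, so that 50.4%, 49.5% and 46.2% of the genes past 1.5-fold were higher in replicate 1, in place of 40.6%. Without a filter 245 genes were higher and 373 lower in place of 238, and with at least 50 counts 100 were higher.

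Over all reads the vessel wall and red cell sums were 5900 and 25.9 per 1000000 reads, without the 10 most abundant genes in the denominator 33432 and 147, and without strand 3387 and 18.04 CPM. From 1 library each they ranged from 12895 to 21958 and from 65.9 to 88.1 CPM. The log2 vessel wall over red cell ratio was 7.79, from 7.61 to 7.96 over single libraries, 8.10 per base of hairpin, 5.37 with mural genes only and 8.76 without Mir486. Its difference, replicate 1 minus replicate 2, was 0.35, but -1.43 without strand, -0.0096 per base, -0.33 with mural genes only and -0.77 without Mir486. Per base and with Mir3107 added to the red cell genes were chosen after seeing the data.

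Without strand, where Mir126a keeps 5 and 6 counts, its log2 ratio between libraries was -0.33, that of Mir126a over Mir143 -11.38 and that of Mir126a over the red cell sum -3.70. Mir486 over Mir451a, 0.35 on the log2 scale over both libraries, was -0.92 in replicate 1 alone and 1.62 in replicate 2 alone, and -0.48 per base. No paired analysis was possible because there is 1 group. Depth limits the red cell genes most, at 37 to 227 counts each.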
